A study of Rattus norvegicus with 40 samples.

Results

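Prox1, Dsp, C1ql2, Grik4, Wfs1 and Fibcd1 are genes by which the subfields of the rodent hippocampus are told apart. They were taken by name from the hippocampus table and joined by gene identifier to the tables of the other regions, which gave 6 genes of the 23485 listed for the hippocampus. Prox1, Dsp and C1ql2 stand for the granule cells of the dentate gyrus, Grik4 for the pyramidal cells of CA3, and Wfs1 and Fibcd1 for those of CA1. Total RNA of 4 rat brain regions was sequenced 12 months after the rats had been exposed to a blast or had been sham treated. The groups were blast-exposed hippocampus, amygdala, anterior cortex and cerebellum and the sham group of each region, with 5 libraries in each of the 8 groups and 40 libraries in all. All libraries were of Rattus norvegicus tissue pieces, and the sources used here give neither strain, sex and age nor the strength of the blast. The labels do not say that the libraries of a group came from separate animals, so p-values measure only the spread between these libraries. A library is called by its title, such as Hip_4, and 1 amygdala sham library with conflicting numbers is called the unnumbered library.

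The hippocampal circuit runs from the granule cells of the dentate gyrus through their mossy fibre axons to the pyramidal cells of CA3, and from CA3 to CA1. Each subfield keeps its own set of genes in adult life, and such genes are used to read the subfields from the summed RNA of a tissue block. The markers are also found in other regions, as the sham levels below give, so none is a pure readout of its subfield. In bulk samples, fewer cells of a type and less RNA per cell cannot be told apart, and the same holds for a block that was cut to include more or less of a subfield.

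Prox1 encodes a homeobox transcription factor that keeps the identity of granule cells, and the files place it on chromosome 13, plus strand, positions 108382399 to 108443294. Dsp encodes desmoplakin, a plaque protein of desmosomes whose transcript marks granule cells in the rodent brain, and lies on chromosome 17, minus strand, 27286796 to 27334379. C1ql2 encodes a secreted C1q-like protein of mossy fibre terminals and lies on chromosome 13, plus strand, 36378356 to 36380302. Grik4 encodes the kainate receptor subunit GluK4, enriched at mossy fibre synapses of CA3, and lies on chromosome 8, minus strand, 46806147 to 47094352. Wfs1 encodes wolframin, a membrane protein of the endoplasmic reticulum that is abundant in CA1 pyramidal cells, and lies on chromosome 14, plus strand, 78640620 to 78665966. Fibcd1 encodes a transmembrane receptor with a fibrinogen-like domain, used in rodents as a CA1 marker, and is placed on chromosome 3, plus strand, 9998458 to 10031530. The sources used here do not name the build of these positions. All 6 are protein-coding genes.

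The sequence before the gene start was available from RefSeq (build GRCr8) for 5 of the 6 genes, Prox1 being the exception. One promoter per subfield is shown, since these 3 genes are used as dentate, CA3 and CA1 markers and their promoters differ in composition. Each is the 250 bases before the start, 5′ to 3′ on the strand of the gene. Capitals mark CAGCTG and the related CAGATG (E-box forms bound by basic helix-loop-helix factors such as those of the neurogenic lineage) and also GGGCGG (the GC box), searched on both strands, and the motifs do not overlap in these windows. The Dsp window is chr17:26877122-26877371, minus strand; that of Grik4 is chr8:52102064-52102313, minus strand; that of Wfs1 is chr14:78034955-78035204, plus strand.
Dsp: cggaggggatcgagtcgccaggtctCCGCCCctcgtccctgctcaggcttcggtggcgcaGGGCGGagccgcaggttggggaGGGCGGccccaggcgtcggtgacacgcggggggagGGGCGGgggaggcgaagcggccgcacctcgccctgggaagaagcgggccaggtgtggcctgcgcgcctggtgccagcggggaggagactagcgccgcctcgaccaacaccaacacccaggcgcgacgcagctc
Grik4: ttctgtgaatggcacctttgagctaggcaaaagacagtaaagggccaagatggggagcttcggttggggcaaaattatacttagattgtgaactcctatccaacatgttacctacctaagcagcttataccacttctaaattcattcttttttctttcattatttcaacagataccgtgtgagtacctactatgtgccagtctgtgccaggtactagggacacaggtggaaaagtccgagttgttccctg
Wfs1: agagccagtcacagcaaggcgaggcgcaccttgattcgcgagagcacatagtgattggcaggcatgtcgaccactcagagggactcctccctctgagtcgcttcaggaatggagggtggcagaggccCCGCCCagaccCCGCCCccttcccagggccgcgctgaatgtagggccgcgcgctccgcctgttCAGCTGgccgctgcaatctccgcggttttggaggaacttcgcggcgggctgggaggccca
The Dsp window held 75.2% G and C and 4 GC boxes, the Wfs1 window 66.0% with 2 GC boxes and 1 CAGCTG, and the Grik4 window 43.2% with none of the motifs. Of the 33469 windows of this length in the table, 30.5% held a GC box, 12.0% a CAGCTG and 14% a CAGATG, and the median G and C content was 51.2%. These are letters in a window and not mapped binding sites.

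Counts per library summed to 11589358 to 19156693 in the hippocampus, 12653267 to 16433786 in the amygdala, 11268097 to 37128383 in the anterior cortex and 11655408 to 15551825 in the cerebellum. The common biological coefficient of variation, the spread between replicates beyond counting error, was 23.9%, 14.6%, 27.8% and 13.6% in that order of regions. 3 hippocampus libraries, blast Hip_8, blast Hip_666 and sham Hip_11, stood apart in choroid plexus genes, which summed to 8234, 7175 and 4978 CPM (counts scaled to the size of the library) there, against 17.4 to 235 CPM in the other 7. Sham Hip_14 stood apart in a trend of expression with gene length: its log2 CPM fell by 0.148 for each doubling of gene length relative to the mean of the region, against slopes of -0.0188 to 0.0499 in the other 9 hippocampus libraries. In the anterior cortex, blast AC_8 and sham AC_11, AC_13 and AC_15 had slopes of 0.0521 to 0.168, against -0.0847 to -0.0718 in the other 6 libraries. Values with and without these libraries are given where a gene turned on them.

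Blast against sham in the hippocampus asks whether the balance of the subfields differed a year after exposure. No gene of the 6 passed the test, and none of their groups separated: blast and sham values overlapped for each. The dentate markers had nearly the same group means, Grik4 had a slightly higher mean in blast libraries, and both CA1 markers had lower means in blast libraries. By edgeR's quasi-likelihood test with Benjamini-Hochberg adjustment over 15059 genes, 0% of the genes (0 genes) were called at an adjusted p under 0.05. At an unadjusted p under 0.05 there were 284 genes (1.89%), none of the 6 among them, while DESeq2 called 1 gene, none of the 6, and limma voom 0. All 6 genes had an adjusted p of 0.998 in this edgeR fit.

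Prox1 had 124, 132, 162, 143 and 139 CPM in blast libraries Hip_4, Hip_8, Hip_22, Hip_88 and Hip_666, against 162, 116, 68.8, 156 and 206 CPM in sham libraries Hip_11, Hip_13, Hip_14, Hip_15 and Hip_33. All blast values lay inside the sham range, and the sham libraries held both the lowest and the highest value. The means were 139.9 ± 14.1 CPM in blast libraries and 141.8 ± 51.8 CPM in sham libraries (SD, n = 5 each). The log2 fold change was -0.02 ± 0.23 (SE), with a 95% interval of -0.51 to 0.48. The interval is wide, so the values do not show that Prox1 was the same in both groups.

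Dsp had 27.0, 45.6, 38.8, 22.7 and 50.2 CPM in blast libraries Hip_4, Hip_8, Hip_22, Hip_88 and Hip_666, against 45.4, 30.8, 17.6, 36.5 and 51.4 CPM in sham libraries Hip_11, Hip_13, Hip_14, Hip_15 and Hip_33. It varied about as widely within each group, with means of 36.9 ± 11.8 CPM in blast libraries and 36.3 ± 13.1 CPM in sham libraries (SD, n = 5 each), and the lowest value was again that of sham Hip_14. The log2 fold change was 0.02 ± 0.28 with an interval of -0.59 to 0.64. Without Hip_8, Hip_666 and Hip_11, in which choroid plexus genes were high, it was -0.20.

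C1ql2 had 161, 175, 207, 172 and 193 CPM in blast libraries Hip_4, Hip_8, Hip_22, Hip_88 and Hip_666, against 168, 176, 245, 127 and 220.4 CPM in sham libraries Hip_11, Hip_13, Hip_14, Hip_15 and Hip_33. Here sham Hip_14, lowest for Prox1 and Dsp, was the highest library. The means were 181.4 ± 18.1 CPM in blast libraries and 187.5 ± 46.2 CPM in sham libraries (SD, n = 5 each), and the log2 fold change was -0.05 ± 0.15 with an interval of -0.38 to 0.29. C1ql2 is the shortest of the 6 transcripts (1364 bases), and Prox1 and Dsp are the longest (7235 and 9567 bases). The part that the length trend of sham Hip_14 had in these values was not tested beyond a fit with the trend removed, which called none of the 6.

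Grik4 had 118, 117, 125, 116 and 117 CPM in blast libraries Hip_4, Hip_8, Hip_22, Hip_88 and Hip_666, against 115, 112, 91.1, 114 and 119 CPM in sham libraries Hip_11, Hip_13, Hip_14, Hip_15 and Hip_33. This was the tightest of the markers: the blast libraries other than Hip_22 lay within 116 to 118 CPM, and the sham libraries other than Hip_14 within 112 to 119 CPM. Its means were 118.6 ± 3.51 CPM in blast libraries and 110.3 ± 11.04 CPM in sham libraries (SD, n = 5 each). The log2 fold change was 0.10 ± 0.08, with an interval of -0.07 to 0.28 that bounds a change in this CA3 marker more closely than for any other of the 6. An exact permutation test of log2 CPM over all arrangements of the 10 libraries gave a two-sided p of 0.0714, where the smallest possible p is 0.00794. All 5 blast values were above the sham median. The lowest of the 10 libraries was sham Hip_14, the one with the downward length trend. Leaving out 1 library at a time gave Grik4 log2 fold changes from 0.0446 to 0.139.

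Wfs1 had 445, 354, 278, 476 and 266 CPM in blast libraries Hip_4, Hip_8, Hip_22, Hip_88 and Hip_666, against 322, 449, 386, 491 and 497 CPM in sham libraries Hip_11, Hip_13, Hip_14, Hip_15 and Hip_33. Blast Hip_22 and Hip_666 lay below every sham library. Its means were 363.8 ± 94.97 CPM in blast libraries and 428.9 ± 74.6 CPM in sham libraries (SD, n = 5 each), and the log2 fold change was -0.24 ± 0.18 with an interval of -0.63 to 0.15 (unadjusted p = 0.206). The 3 libraries high in choroid plexus genes, blast Hip_8, blast Hip_666 and sham Hip_11, were together with blast Hip_22 the 4 lowest for Wfs1. Choroid plexus genes were not high in blast Hip_22 (83.9 CPM summed). Without those 3 libraries the Wfs1 fold change was -0.18, and the part of choroid plexus tissue in it was not tested.

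Fibcd1 had 1.57, 0.529, 5.73, 1.64 and 0.474 CPM in blast libraries Hip_4, Hip_8, Hip_22, Hip_88 and Hip_666, against 14.8, 0.419, 0.158, 12.6 and 13.5 CPM in sham libraries Hip_11, Hip_13, Hip_14, Hip_15 and Hip_33. The sham libraries fell into 2 sets, with 3 libraries at 12.6 to 14.8 CPM and sham Hip_13 and Hip_14 below every blast library. The means were 1.99 ± 2.16 CPM in blast libraries and 8.29 ± 7.35 CPM in sham libraries (SD, n = 5 each). The log2 fold change was the largest of the 6 and the least certain, -2.03 ± 1.02 with an interval of -4.25 to 0.19 (unadjusted p = 0.0693). Without the 3 choroid plexus libraries it was -1.13. Leaving out 1 library at a time gave -2.95 (without blast Hip_22) to -1.71 (without sham Hip_11), and limma voom gave -0.69. The difference of mean log2 CPM was -1.17, with a two-sided p of 0.405 by the exact permutation test.

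**Figure D1:**
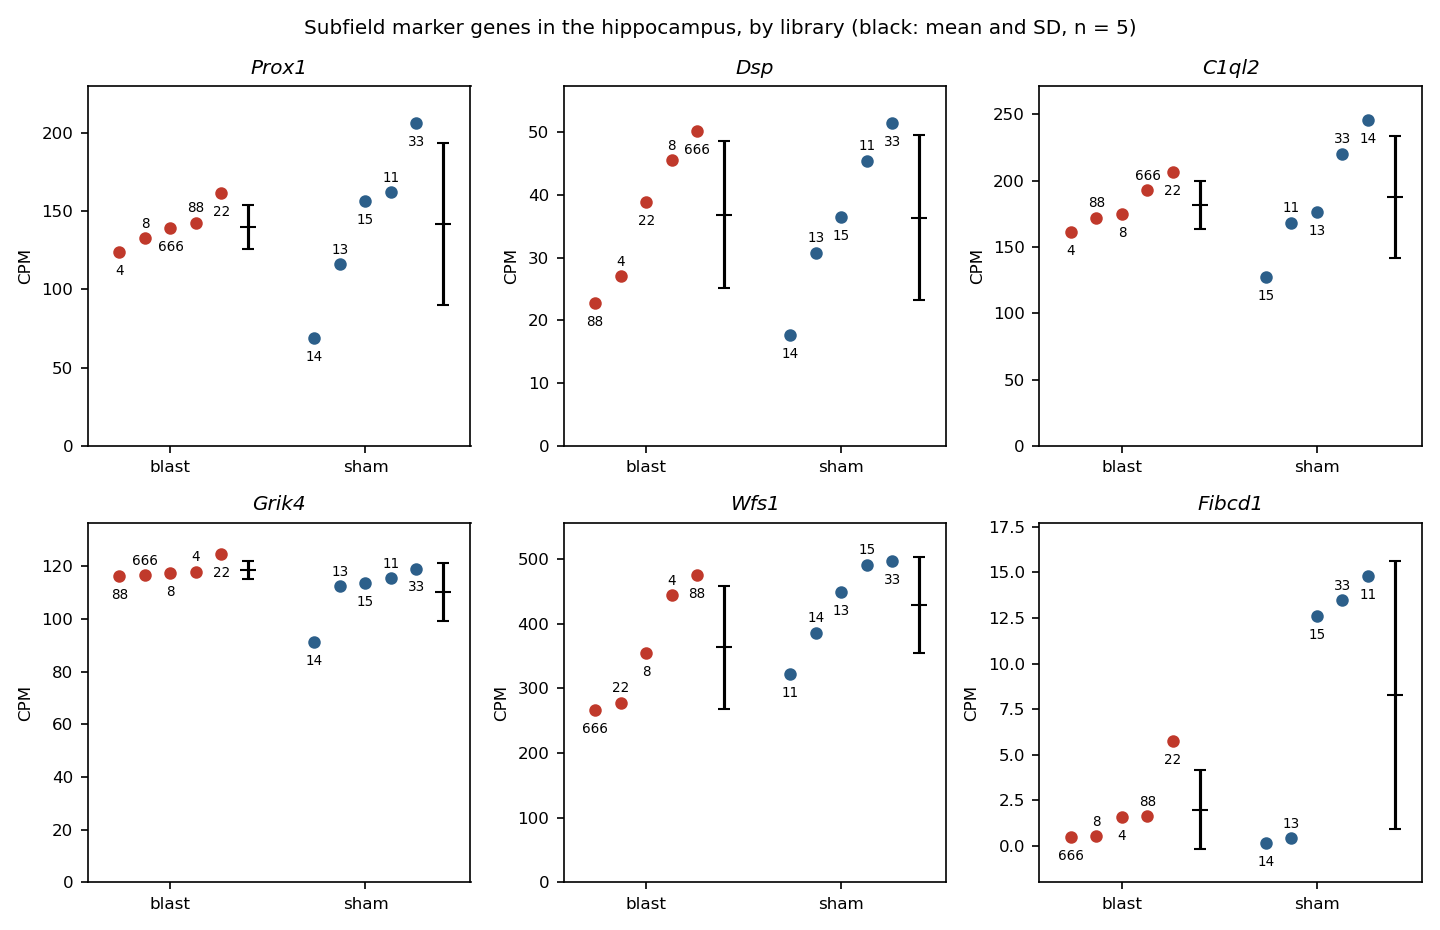
CPM of the 6 genes in each hippocampus library, blast left of sham, with the library number beside each point and the mean and SD (n = 5) in black. Blast and sham points overlap for every gene; sham Hip_14 is lowest for Prox1, Dsp and Grik4 and highest for C1ql2, and Fibcd1 is at 12.6 to 14.8 CPM in 3 sham libraries only.

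Fibcd1 cannot be read alone, because the tables also list Fibcd1l1, a gene on the same chromosome (chromosome 3, plus strand, 9366053 to 9396450) that RefSeq GRCr8 gives as a synonym of its single Fibcd1. In the hippocampus, Fibcd1 and Fibcd1l1 had 22 and 23 counts in blast Hip_4, with 7 and 21 in Hip_8, 89 and 37 in Hip_22, 25 and 13 in Hip_88, and 7 and 13 in Hip_666. In sham libraries the pairs were 175 and 12 in Hip_11, 7 and 15 in Hip_13, 3 and 14 in Hip_14, 173 and 13 in Hip_15, and 167 and 9 in Hip_33. The near copy therefore stayed within 9 to 37 counts while Fibcd1 ran from 3 to 175. Summed over both genes, the hippocampus log2 fold change was -1.39 ± 0.75 (edgeR, adjusted p = 0.998). Fibcd1 is reported as uncertain wherever it appears.

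**Figure D2:**
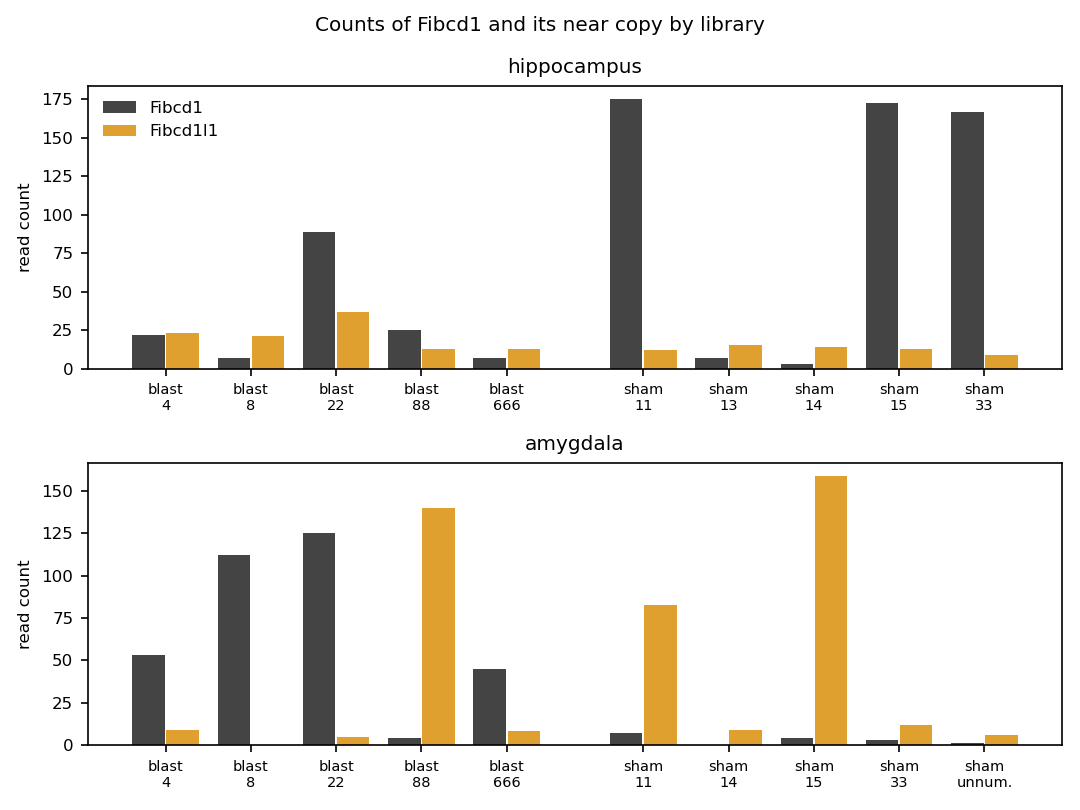
Read counts of Fibcd1 (dark) and Fibcd1l1 (yellow) in each hippocampus and amygdala library, blast libraries left of sham libraries. In the hippocampus 3 sham libraries hold 167 to 175 counts of Fibcd1; in the amygdala 4 blast libraries hold 45 to 125, while blast Amy_88, sham Amy_11 and sham Amy_15 hold 83 to 159 counts of Fibcd1l1 and the other 3 sham libraries few counts of either.

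Other genes of the subfields behaved like their markers in that none was called. Of 13 dentate granule cell genes tested (the 3 markers included), 6 had a log2 fold change above 0 and 7 below, with a median of -0.00 where the median of all genes was -0.00. The smallest p in that list was that of Trpc6, a cation channel of granule cells, at -0.17 ± 0.10 (unadjusted p = 0.108). Of 6 genes of immature dentate neurons, 3 were above 0 and 3 below, and the summed list ran from 64.9 to 70.8 CPM in blast libraries and from 51.5 to 69.0 CPM in sham libraries. These sums overlapped. The list is not particular to the dentate gyrus: its sham mean was 63.1 CPM in the hippocampus. It was 96.4 CPM in the amygdala, 128 CPM in the anterior cortex and 999 CPM in the cerebellum, each on the scale of its region. The sums are therefore no measure of adult neurogenesis. Of 5 hilar mossy cell genes 3 were above 0, and Csf2rb, a cytokine receptor subunit, had 1.17 ± 0.34 (unadjusted p = 0.00467, edgeR adjusted p = 0.998).

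The CA3 list had 5 of 8 genes above 0 and a median of 0.06, and the CA2 list 2 of 8 above 0 and a median of -0.09. In the CA2 list Ntf3, which encodes neurotrophin 3, had -0.31 ± 0.18. The CA1 list had 0 of 8 genes above 0 and a median of -0.22. Besides Wfs1 and Fibcd1 these included Itpka, an inositol trisphosphate kinase of dendritic spines (-0.20 ± 0.11, unadjusted p = 0.0892), and Ccn3, a secreted matricellular protein (-0.30 ± 0.17). None had an edgeR adjusted p under 0.998, and the genes of a list share the same 10 libraries, so 8 genes below 0 are not 8 separate observations. The summed CA1 list ran from 673 to 1104 CPM in blast libraries (median 859) and from 801 to 1180 CPM in sham libraries (median 1101). Like Wfs1, it was lowest in blast Hip_666, blast Hip_22, sham Hip_11 and blast Hip_8. Wfs1 is part of this sum, so the likeness is in part built in and is no separate observation. Of 4 subiculum genes 2 were above 0, and Nts, the neurotensin precursor, had -0.55 ± 0.29.

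Markers of other cells are given beside these values. No gene of the lists in this paragraph was called or had an unadjusted edgeR p under 0.05. The genes of each list again share the same 10 libraries. All 8 choroid plexus genes tested were above 0 with a median of 1.54, and Ttr, which encodes transthyretin, had 6551, 5942 and 4022 CPM in blast Hip_8, blast Hip_666 and sham Hip_11, against 8.44 to 179 CPM in the rest. All 8 myelin genes (median 0.17), all 5 ependyma genes (median 0.23) and all 7 fibroblast and meninges genes (median 0.24) were above 0, and 1 of 7 pan-neuronal genes was. Summed myelin genes ran from 7078 to 10266 CPM in blast libraries and from 4556 to 9690 CPM in sham libraries. Endothelial genes, listed because Prox1 is also a lymphatic endothelial gene, ran from 88.9 to 119 CPM in blast libraries and from 80.9 to 113 CPM in sham libraries. The part of these tissues in the marker values was not tested.

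Partners of the markers were read from lists of their complexes. Of 14 genes of kainate receptors, their auxiliary subunits and C1q-like ligands with their neurexin and adhesion receptor partners, 4 were above 0 and 10 below, with a median of -0.05. The markers Grik4 and C1ql2 are counted among these 14. Grik2, the most common pairing subunit, had -0.10 ± 0.10, Grik5 -0.04 ± 0.07 and the auxiliary subunit Neto1 0.04 ± 0.13. Of 8 desmosome genes, the marker Dsp included, all were above 0 with a median of 0.13. Among them were Jup (plakoglobin) at 0.10 ± 0.08, Ppl (periplakin) at 0.23 ± 0.21 and Dsc2 (desmocollin 2) at 0.59 ± 0.42. None of these was called, and the genes of each list share the same libraries, so they are not separate observations.

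The balance between dentate and CA1 markers was taken in each library as mean log2 CPM of Prox1, Dsp and C1ql2 minus log2 CPM of Wfs1. It was -2.45, -1.80, -1.35, -2.53 and -1.27 in blast libraries Hip_4, Hip_8, Hip_22, Hip_88 and Hip_666, against -1.58, -2.38, -2.53, -2.45 and -1.90 in sham libraries Hip_11, Hip_13, Hip_14, Hip_15 and Hip_33. Blast Hip_22 and Hip_666 lay above every sham library and the other 3 blast libraries did not. The balance was tipped furthest to the dentate side in blast Hip_666, blast Hip_22, sham Hip_11 and blast Hip_8, the same 4 libraries that were low in Wfs1. Wfs1 is subtracted in this balance, so the match follows in part from the definition and is no separate observation. With Fibcd1 averaged into the CA1 side the balance became 1.57, 2.73, 1.43, 1.504 and 3.12 in the blast libraries and 0.63, 2.44, 2.65, 0.19 and 0.69 in the sham libraries. That version followed Fibcd1: the 3 sham libraries rich in Fibcd1 had the 3 lowest values.

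Across the 10 hippocampus libraries, with the group means removed, the markers were set against each other in 15 pairs. Prox1 and Grik4 varied together, with Pearson's r = 0.94 (permutation p = 0.00259, Benjamini-Hochberg adjusted over the 15 pairs p = 0.0275) and Spearman's rho = 0.72 (permutation p = 0.0143, adjusted p = 0.0715). Without sham Hip_14 and sham Hip_33, the libraries farthest from the median of Prox1, r was 0.63. Prox1 and Dsp had r = 0.77 (permutation p = 0.0139, adjusted p = 0.0521) and rho = 0.66 (permutation p = 0.0724, adjusted p = 0.232). That relation fell to r = 0.35 without the same 2 libraries and so rests on them. Over all 10 libraries C1ql2 had r = -0.31 with Prox1 (permutation p = 0.585, adjusted p = 0.798, rho = -0.15). With Dsp it had r = -0.14 (permutation p = 0.763, adjusted p = 0.894, rho = 0.16). Without sham Hip_14 alone these became 0.48 and 0.46, and Prox1 with Dsp became 0.49. C1ql2 with Grik4 went from r = -0.40 to 0.62. The sign of the C1ql2 relations with Prox1, Dsp and Grik4 thus turned on that library. Wfs1 had r between -0.38 and 0.07 with the others. Fibcd1 falls into separate clusters of libraries, and no r over all 10 is given for it. Of the 10 pairs without Fibcd1, 1 had an adjusted Pearson p under 0.05 and 0 an adjusted Spearman p under 0.05. Over all 15 pairs the counts were 3 and 2. The added pairs were Fibcd1 with Prox1 and with Grik4, and they rest on the uncertain counts of Fibcd1.

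By a fixed measure, the genes whose pattern over the 10 hippocampus libraries was most like each marker other than Fibcd1 were sought among 14496 genes with a mean of at least 1 CPM, as Pearson's r of log2 CPM with group means removed. They were Auts2 (0.99) and Arhgap20 (0.98) for Prox1, Gabpb2 (0.97) and Entpd4 (0.96) for Dsp, and Rpain (0.98) and Mrpl37 (0.97) for C1ql2. They were Fbxo41 (1.00) and Fbxl20 (0.99) for Grik4, and Stac (0.95) and Zfp563 (0.94) for Wfs1. Grik4 and Prox1 had 707 and 372 genes over 0.9, Dsp 43, C1ql2 31 and Wfs1 8. These are descriptions over 10 libraries, in which a gene shares the depth and length trend of the library with the marker. Without sham Hip_14 the r of Fbxo41 with Grik4 was 0.96 and that of Auts2 with Prox1 was 0.97.

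**Figure D3:**
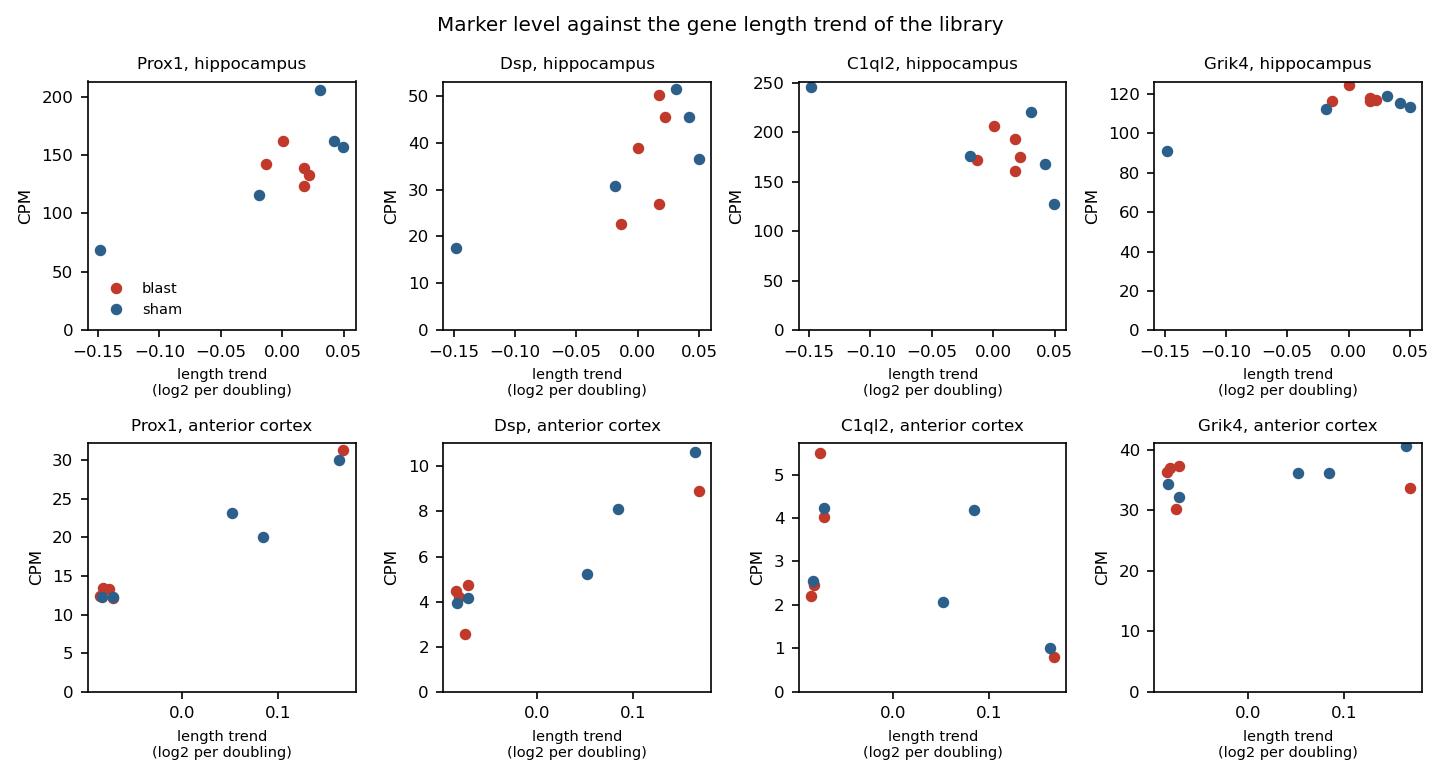
CPM of Prox1, Dsp, C1ql2 and Grik4 against the gene length trend of each library (log2 CPM per doubling of gene length), blast in red and sham in blue, for the hippocampus (top) and the anterior cortex (bottom). Sham Hip_14 of the hippocampus, at -0.148, is low for the 3 longer genes and high for C1ql2; in the anterior cortex the 4 libraries above 0 hold the 4 highest Prox1 values.

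In the amygdala, blast and sham overlapped for each marker and 0% of 15280 genes were called by edgeR. At an unadjusted p under 0.05 there were 1325 genes (8.67%), while DESeq2 called 20, none of them a marker, and limma voom 0. Among the 5 markers that passed the low-count filter, C1ql2 had the smallest p. It had 25.2, 24.9, 22.2, 23.2 and 22.2 CPM in blast libraries Amy_4, Amy_8, Amy_22, Amy_88 and Amy_666, against 24.9, 15.8, 18.0, 14.9 and 14.8 CPM in sham libraries Amy_11, Amy_14, Amy_15, Amy_33 and the unnumbered one. Blast values were high and tight, and sham Amy_11 was the only sham library among them. The log2 fold change was 0.42 ± 0.13 with an interval of 0.14 to 0.69. Its unadjusted p was 0.00627 and its edgeR adjusted p was 0.459, so it did not pass. An exact permutation test of log2 CPM gave a two-sided p of 0.0317 for this gene alone, and the DESeq2 adjusted p was 0.178. Leaving out 1 library at a time gave edgeR adjusted p-values from 0.0781 to 0.829, all over 0.05.

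Prox1, Dsp, Grik4 and Wfs1 had larger p-values. Prox1 had 16.4, 19.8, 17.6, 17.3 and 17.2 CPM in blast libraries and 12.9, 18.2, 17.8, 16.0 and 16.7 CPM in sham libraries, in the same order of libraries (log2 fold change 0.12 ± 0.10, edgeR adjusted p = 0.769). Dsp had 3.62, 4.70, 5.58, 2.30 and 4.73 CPM in blast libraries and 5.08, 4.74, 5.50, 4.56 and 5.45 CPM in sham libraries (-0.28 ± 0.21, edgeR adjusted p = 0.727). Its sham values were close together, and blast Amy_88 was the lowest. Grik4 had 34.9 to 43.6 CPM in blast libraries (median 38.4) and 31.6 to 41.7 CPM in sham libraries (median 33.9), with a fold change of 0.08 ± 0.09 (edgeR adjusted p = 0.827). Wfs1 had 269.8 to 379 CPM in blast libraries and 255 to 424 CPM in sham libraries, with a fold change of -0.00 ± 0.13 (edgeR adjusted p = 0.997). Both groups spanned nearly the same values. Beside these, 7 of 8 myelin genes had a log2 fold change below 0, with sums of 3651 to 4097 CPM in blast libraries and 3832 to 4922 CPM in sham libraries, and all 9 choroid plexus genes tested were below 0. Their part in the marker values was not tested.

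Fibcd1 had 3.42, 7.86, 8.71, 0.256 and 2.87 CPM in amygdala blast libraries Amy_4, Amy_8, Amy_22, Amy_88 and Amy_666, against 0.547, 0, 0.286, 0.190 and 0.0757 CPM in sham libraries Amy_11, Amy_14, Amy_15, Amy_33 and the unnumbered one. Here 4 of the 5 blast libraries were above every sham library. The order of the group means was the opposite of the hippocampus, where sham Hip_13 and Hip_14 lay below every blast library. The gene was removed by the low-count filter. Without the filter its log2 fold change was 4.34 ± 0.73 (edgeR adjusted p = 0.0880, exact permutation p of log2 CPM = 0.0238, unadjusted), so it did not pass. It entered 6 of the filtered fits that left out 1 library, through its high blast values. The edgeR adjusted p there was 0.177 to 0.668 in 5 fits without 1 sham library and 0.0198 without Amy_88, the blast library that was low, so the value without Amy_88 follows from taking that library out and supports no call. Fibcd1 and Fibcd1l1 had 53 and 9, 112 and 0, 125 and 5, 4 and 140, and 45 and 8 counts in the blast libraries, against 7 and 83, 0 and 9, 4 and 159, 3 and 12, and 1 and 6 counts in the sham libraries. Blast Amy_88 and all 5 sham libraries thus had most of their counts in the near copy, and the other 4 blast libraries in Fibcd1. With both summed, the log2 fold change was 0.68 ± 0.67 (edgeR adjusted p = 0.794).

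In the anterior cortex 0% of 14918 genes were called by edgeR, 644 (4.32%) had an unadjusted p under 0.05, and DESeq2 and limma voom called 0. 1 edgeR model of all 40 libraries called 34 genes here, none of them a marker. Prox1 had 12.2, 31.3, 13.3, 13.5 and 12.4 CPM in blast libraries AC_4, AC_8, AC_22, AC_88 and AC_666, against 20.1, 23.2, 12.3, 29.998 and 12.2 CPM in sham libraries AC_11, AC_13, AC_14, AC_15 and AC_33. The 4 libraries over 20 CPM were those with the upward length trend, and the other 6 lay between 12.2 and 13.5 CPM. Its log2 fold change was -0.25 ± 0.32 (edgeR adjusted p = 0.844), and without those 4 libraries it was 0.06. Dsp, the longest gene, had 2.57 to 8.93 CPM in blast libraries (median 4.46) and 3.94 to 10.6 CPM in sham libraries (median 5.21), with a fold change of -0.37 ± 0.37 (edgeR adjusted p = 0.810). Its 4 highest libraries were those same 4. C1ql2, the shortest, had 4.03, 0.796, 5.49, 2.45 and 2.19 CPM in blast libraries against 4.19, 2.07, 2.54, 1.00 and 4.24 CPM in sham libraries (0.12 ± 0.49, edgeR adjusted p = 0.961), and blast AC_8 and sham AC_15 were its lowest. Grik4 and Wfs1 had fold changes of -0.04 ± 0.11 (edgeR adjusted p = 0.932) and -0.07 ± 0.15 (edgeR adjusted p = 0.906), and without the same 4 libraries both turned sign, to 0.07 ± 0.11 and 0.19 ± 0.12 (edgeR adjusted p = 0.999 each). Fibcd1 had at most 1.11 CPM in blast libraries and 1.84 CPM in sham libraries, and was below the filter. Beside these values, all 4 endothelial genes tested were below 0 (median -0.56), with sums of 130.2 to 235 CPM in blast libraries and 139 to 277 CPM in sham libraries. All 7 fibroblast and meninges genes were below 0 too (median -0.23), and their sums were 126 to 188 CPM in blast libraries and 167 to 238 CPM in sham libraries. Their part in the marker values was not tested.

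In the cerebellum, where Fibcd1 was not analysed, edgeR called 0% of 14769 genes, 683 (4.62%) had an unadjusted p under 0.05, DESeq2 called 5, none of them a marker, and limma voom 0. Prox1 had 53.0, 55.0, 47.4, 53.1 and 64.8 CPM in blast libraries Cer4, Cer8, Cer22, Cer88 and Cer666, against 64.9, 59.2, 68.4, 55.7 and 61.5 CPM in sham libraries Cer11, Cer13, Cer14, Cer15 and Cer33. 4 of the 5 blast libraries were below every sham library, and blast Cer666 was among the sham values. The log2 fold change was -0.18 ± 0.08 (unadjusted p = 0.0431, edgeR adjusted p = 0.999), and the exact permutation p was 0.0794. Grik4 had 23.0 to 27.8 CPM in blast libraries (median 24.8) and 25.8 to 30.5 CPM in sham libraries (median 27.5), with a fold change of -0.15 ± 0.07 (unadjusted p = 0.0574, edgeR adjusted p = 0.999). Dsp, C1ql2 and Wfs1 had fold changes of 0.27 ± 0.31, 0.20 ± 0.29 and 0.01 ± 0.09, all with an edgeR adjusted p of 0.999. All 8 choroid plexus genes tested were above 0 here too, with sums of 51.2 to 2628 CPM in blast libraries and 46.7 to 1181 CPM in sham libraries. All 5 ependyma genes were above 0 (median 0.87), with sums of 7.97 to 13.6 CPM in blast libraries and 4.81 to 7.85 CPM in sham libraries. All 7 fibroblast and meninges genes were above 0 (median 0.81), with sums of 81.7 to 119.6 CPM in blast libraries and 40.5 to 92.1 CPM in sham libraries. No gene of these lists was called. At an unadjusted edgeR p under 0.05 there were 0 choroid plexus, 2 ependyma and 3 fibroblast and meninges genes. The part of these tissues in the marker values was not tested.

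**Figure D4:**
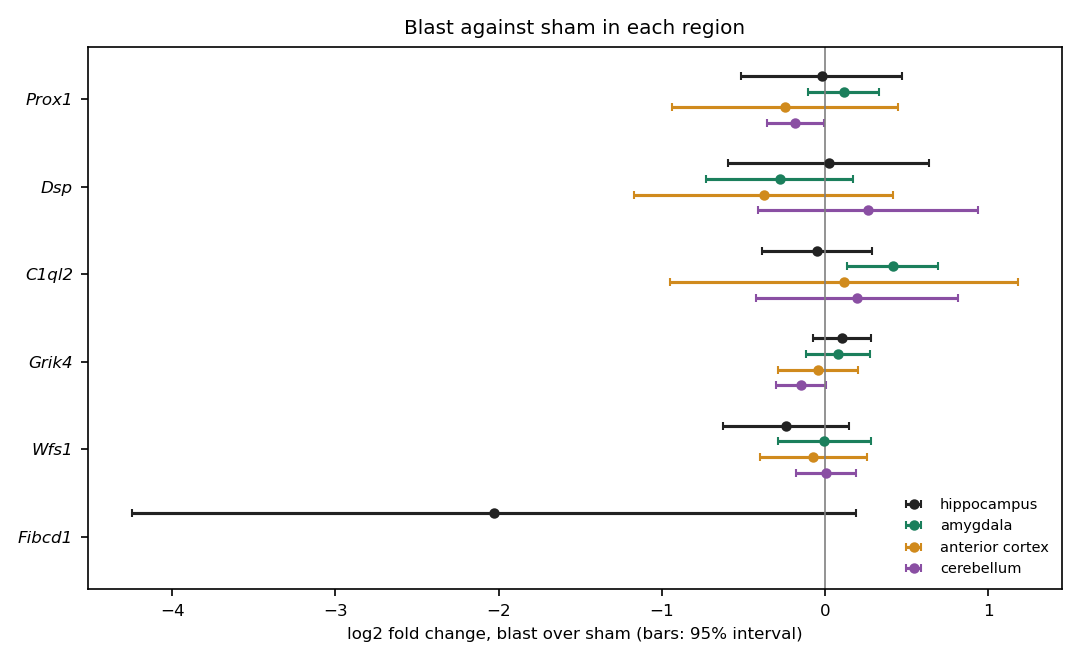
log2 fold change of blast over sham with its 95% interval for each marker and region. The intervals include 0 for all but C1ql2 in the amygdala (0.14 to 0.69) and Prox1 in the cerebellum (-0.36 to -0.01), neither of which passed after adjustment; Fibcd1 passed the low-count filter in the hippocampus only.

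Whether the blast effect itself differed between regions was tested over all 40 libraries. The edgeR interaction test called 0% of 16378 genes, and 779 (4.76%) had an unadjusted p under 0.05, while the DESeq2 likelihood ratio test called 3, none of them a marker, and limma voom with quality weights 0. The unadjusted p of the markers was 0.648 for Prox1, 0.521 for Dsp, 0.558 for C1ql2, 0.139 for Grik4 and 0.636 for Wfs1, with an adjusted p of 1.00 for each. For the hippocampus effect minus that of the amygdala edgeR called 0% of the genes (506 at an unadjusted p under 0.05), minus that of the anterior cortex 0% (2196 at an unadjusted p under 0.05) and minus that of the cerebellum 0% (269 at an unadjusted p under 0.05). The DESeq2 counts for these 3 differences were 0, 15 and 0, again with no marker, and limma voom called 0 for each. C1ql2 had -0.48 ± 0.33 for the hippocampus effect minus that of the amygdala (edgeR adjusted p = 0.992). Grik4 had 0.25 ± 0.12 for the hippocampus effect minus that of the cerebellum, with an unadjusted p of 0.0422 and an edgeR adjusted p of 1.00.

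The sham libraries give the levels of the markers between regions. The markers were chosen with earlier results of these data known, so these levels are no independent check of the tissue labels. Prox1, Dsp, C1ql2, Grik4 and Wfs1 were each highest in the hippocampus, and all 5 were called higher there than in each of the other regions, the call of Wfs1 over the amygdala being lost under several alternatives. Against the amygdala 9.14% of 15695 genes were called higher in the hippocampus and 11.5% lower, against the anterior cortex 22% higher and 21.7% lower, and against the cerebellum 27.9% higher and 25.4% lower. A share this large means that a call alone is common here, and the sizes of the differences carry the comparison.

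Of the 5 markers other than Fibcd1, C1ql2 had the largest difference between the hippocampus and each other region. Its sham level was 188.7 ± 46.4 CPM in the hippocampus, 17.7 ± 4.23 CPM in the amygdala, 2.97 ± 1.49 CPM in the anterior cortex and 1.90 ± 0.78 CPM in the cerebellum (SD, n = 5 each). The log2 fold changes of hippocampus over amygdala, anterior cortex and cerebellum were 3.42 ± 0.27, 5.99 ± 0.32 and 6.64 ± 0.33 (edgeR adjusted p = 8.50e-09, 2.27e-11 and 2.70e-13). Only its anterior cortex and cerebellum values overlapped. Prox1 followed another order, with 142.9 ± 52.5 CPM in the hippocampus, 56.7 ± 4.93 CPM in the cerebellum, 20.6 ± 7.81 CPM in the anterior cortex and 16.3 ± 2.06 CPM in the amygdala. The cerebellum was thus second for Prox1, a gene also made by neurons outside the dentate gyrus, and the anterior cortex and amygdala did not differ beyond their spread. Its log2 fold changes over amygdala, anterior cortex and cerebellum were 3.13 ± 0.26, 2.80 ± 0.25 and 1.33 ± 0.24 (edgeR adjusted p = 1.43e-08, 3.10e-08 and 6.52e-05). Sham AC_11, AC_13 and AC_15, the libraries with the upward length trend, had 20.9, 24.3 and 31.5 CPM of Prox1. Sham AC_14 and AC_33 had 13.15 CPM each, below the amygdala mean. Over the alternatives the Prox1 log2 fold change over the anterior cortex ran from 2.79 to 3.40. Dsp had 36.6 ± 13.3 CPM in the hippocampus, 6.75 ± 2.99 CPM in the anterior cortex, 5.06 ± 0.41 CPM in the amygdala and 1.99 ± 0.44 CPM in the cerebellum. The anterior cortex and amygdala values of Dsp overlapped, and its log2 fold changes over amygdala, anterior cortex and cerebellum were 2.85 ± 0.28, 2.45 ± 0.27 and 4.20 ± 0.30 (edgeR adjusted p = 1.48e-07, 6.05e-07 and 1.37e-10).

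Grik4 was spread more evenly, with 111.0 ± 11.4 CPM in the hippocampus, 37.9 ± 2.96 CPM in the anterior cortex, 36.5 ± 4.74 CPM in the amygdala and 25.6 ± 1.99 CPM in the cerebellum (SD, n = 5 each). Its anterior cortex and amygdala values overlapped. The log2 fold changes of hippocampus over amygdala, anterior cortex and cerebellum were 1.60 ± 0.10, 1.55 ± 0.10 and 2.12 ± 0.10 (edgeR adjusted p = 2.93e-10, 2.07e-10 and 1.51e-13). Wfs1 was shared with the amygdala: 431.8 ± 76.2 CPM in the hippocampus, 315.2 ± 66.2 CPM in the amygdala, 167.1 ± 37.6 CPM in the anterior cortex and 21.9 ± 2.27 CPM in the cerebellum. Hippocampus and amygdala values overlapped, and their log2 fold change of 0.45 ± 0.16 was called narrowly (edgeR adjusted p = 0.0426). That call was lost in 7 of 20 fits that left out 1 library, with adjusted p-values up to 0.121, with the library number as a replicate block (0.39, edgeR adjusted p = 0.152), and in the same contrast between blast libraries, where the log2 fold change was 0.20 (edgeR adjusted p = 0.297). Against the anterior cortex and the cerebellum the Wfs1 log2 fold changes were 1.37 ± 0.16 and 4.30 ± 0.18 (edgeR adjusted p = 9.51e-07 and 1.72e-14).

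Fibcd1 was compared over the 15 sham libraries of the 3 forebrain regions, where edgeR called 7.34% of 15417 genes higher in the hippocampus than in the amygdala and 18.2% higher than in the anterior cortex. It had 8.04 ± 7.12 CPM in the hippocampus, 0.737 ± 0.787 CPM in the anterior cortex and 0.212 ± 0.207 CPM in the amygdala (SD, n = 5 each), and neighbouring regions overlapped. The log2 fold changes were 5.18 ± 1.198 over the amygdala (edgeR adjusted p = 0.00553) and 3.37 ± 1.04 over the anterior cortex (edgeR adjusted p = 0.0180). Summed with its near copy, the value over the amygdala was 1.13 (edgeR adjusted p = 0.467), and between blast libraries Fibcd1 alone had -1.17. Over the anterior cortex the blast libraries gave 2.67 (edgeR adjusted p = 0.0602). The Fibcd1 difference between hippocampus and amygdala therefore turned on the treatment group read and on the near copy.

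**Figure D5:**
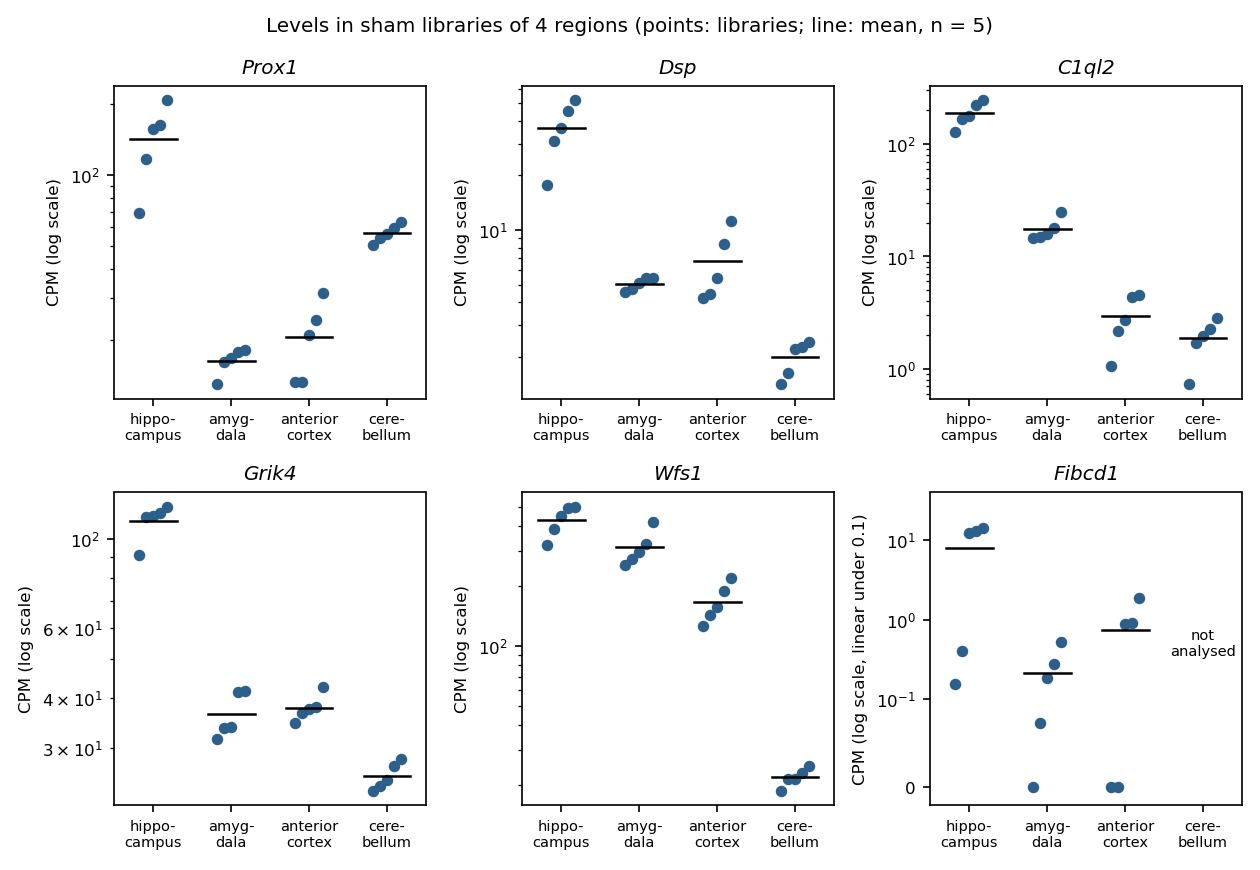
CPM of each marker in the sham libraries of the 4 regions on a log axis, with the mean as a line (n = 5); the Fibcd1 axis is linear under 0.1 CPM and that gene was not analysed in the cerebellum. Hippocampus libraries are highest for Prox1, Dsp, C1ql2 and Grik4 with no overlap, while those of Wfs1 overlap with the amygdala and those of Fibcd1 with the amygdala and anterior cortex.

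The wider subfield lists held genes called in both directions. Of 13 dentate genes (the 3 markers included), 9 were called higher and 0 lower in the hippocampus than in the amygdala, 8 higher and 1 lower than in the anterior cortex, and 10 higher and 1 lower than in the cerebellum. Trpc6 had log2 fold changes of 2.09 ± 0.18, 1.37 ± 0.17 and 2.91 ± 0.19 over the 3 regions in that order (edgeR adjusted p = 2.57e-08, 3.07e-06 and 1.96e-11). Of 8 CA3 genes 5, 4 and 5 were called higher and 2, 2 and 2 lower in that order. The summed CA3 list had a sham mean of 334 CPM in the hippocampus and 350.1 CPM in the cerebellum, each on the scale of its region. Those scales differ, so the sums do not rank the regions. Bok, a BCL2 family gene of CA3, had log2 fold changes of 1.48 ± 0.15, 1.77 ± 0.15 and 1.53 ± 0.15 over the 3 regions (edgeR adjusted p = 2.92e-07, 1.76e-08 and 2.17e-08). Coch, a secreted matrix gene, was lower in the hippocampus than in the amygdala, at -3.91 ± 0.43 (edgeR adjusted p = 8.63e-07). Of 7 CA1 genes 4, 5 and 7 were called higher and 0, 2 and 0 lower. Pou3f1, a POU domain transcription factor, had 2.15 ± 0.20, 1.85 ± 0.20 and 4.90 ± 0.24 (edgeR adjusted p = 8.24e-08, 3.52e-07 and 1.71e-13).

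Of 8 CA2 genes 2, 4 and 5 were called higher and 1, 1 and 2 lower than in the amygdala, anterior cortex and cerebellum. Rgs14, a regulator of G protein signalling that marks CA2, had 0.55 ± 0.17, 1.58 ± 0.17 and 8.32 ± 0.27 in that order (edgeR adjusted p = 0.0217, 4.23e-07 and 2.06e-16). Lists of cells that other regions share did not follow the markers. Of 7 genes of immature dentate neurons 1, 1 and 3 were called higher and 3, 4 and 3 lower, among them Neurod1, a proneural factor also of cerebellar granule cells, with 1.31 ± 0.13, 2.73 ± 0.14 and -4.07 ± 0.14 (edgeR adjusted p = 2.11e-07, 2.27e-11 and 6.15e-16). Of 5 subiculum genes 1, 1 and 1 were called higher and 3, 4 and 3 lower, and of 5 hilar mossy cell genes 1, 1 and 2 higher and 2, 3 and 2 lower.

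Among the 14 kainate receptor and C1q-like genes, 4, 5 and 7 were called higher and 3, 5 and 5 lower than in the amygdala, anterior cortex and cerebellum. With C1ql2 and Grik4, the genes called higher against all 3 regions were Neto1, an auxiliary subunit of kainate receptors (1.196 ± 0.19, 1.12 ± 0.19 and 5.67 ± 0.24; edgeR adjusted p = 6.19e-05, 7.03e-05 and 1.60e-14), and C1ql3, the close relative of C1ql2 (0.66 ± 0.23, 0.88 ± 0.23 and 4.74 ± 0.28; edgeR adjusted p = 0.0451, 0.00472 and 5.09e-12). The other auxiliary subunit, Neto2, was lower against each, at -0.60 ± 0.15, -1.05 ± 0.15 and -1.41 ± 0.15 (edgeR adjusted p = 0.00685, 1.56e-05 and 8.42e-08). Grik1, the GluK1 subunit of interneurons, was lower too, at -1.21 ± 0.16, -0.67 ± 0.16 and -1.22 ± 0.16 (edgeR adjusted p = 7.84e-06, 0.00224 and 1.28e-06). Of 9 desmosome genes 2, 3 and 2 were called higher and 2, 3 and 3 lower. Ppl accompanied Dsp in each contrast (2.87 ± 0.25, 1.55 ± 0.24 and 2.43 ± 0.25; edgeR adjusted p = 4.08e-08, 3.13e-05 and 3.58e-08). Jup, which also serves adherens junctions, was lower in each (-0.53 ± 0.08, -0.94 ± 0.08 and -2.24 ± 0.09; edgeR adjusted p = 6.90e-05, 2.53e-08 and 4.26e-15).

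Levels between the markers were read per transcript length, as FPKM in the hippocampus. C1ql2 was the most abundant on that scale, with a mean level of 132.7 FPKM in blast libraries and 137.3 FPKM in sham libraries. Wfs1 followed with 101.1 FPKM in blast libraries and 120.2 FPKM in sham libraries, and Grik4 with 35.8 FPKM in blast libraries and 33.5 FPKM in sham libraries. Prox1 had 19.3 FPKM in blast libraries and 19.6 FPKM in sham libraries, Dsp 3.85 FPKM in blast libraries and 3.80 FPKM in sham libraries, and Fibcd1 0.491 FPKM in blast libraries and 2.05 FPKM in sham libraries. The order of the 6 levels was the same in both groups.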

How the data were processed

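RNA of 4 rat brain regions was sequenced in 40 libraries, 5 blast and 5 sham per region, grouped by the tissue and treatment labels. Per the labels' protocols, total RNA was extracted with Qiazol and cleaned on RNeasy columns, and the library kit was NEBNext Ultra RNA. The submitters' processing notes name CASAVA, without a version; the sources used here name no aligner, counter or genome build. Raw read counts, in whole numbers and 1 table per region, were deposited by the authors, per the file headers. The authors also deposited FPKM values, which were used for levels between genes within a library, and a normalized signal per library, which served only to check the count columns. The authors deposited log2 fold changes and p-values of their own test, which are not used in the text. 2 columns of per-library values whose library could not be settled were not used.

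The members and lists were chosen with earlier results of these data known. The 6 genes were named in full. By rule, up to 3 other genes of a subfield list with the smallest p were named, any gene of the partner lists, and the 2 genes most like each member (not given for Fibcd1, whose libraries fall into clusters); Ttr was named after its values were seen, and 1 gene of the CA1 list is counted but not reported here by name.

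Blast was compared with sham in each region by edgeR 4.0.16 (filterByExpr, TMM, two-sided quasi-likelihood F tests) on the deposited counts. Sham regions were compared in 1 fit of 20 sham libraries over genes found in all 4 tables, and the blast effect between regions in 1 fit of 40 libraries. Adjusted p-values are Benjamini-Hochberg values over all genes of a fit, called under 0.05. CPM are counts scaled to the TMM library size. They are on the scale of the region for blast against sham and for all summed lists, and of the sham libraries between regions. The log2 CPM used a prior count of 2. Intervals are 95% intervals of the fitted log2 fold change. Correlations used 100000 permutations within groups. DESeq2 1.42.0, limma 3.58.1 and other filters, scalings and library sets were alternatives. Removing the length trend, summing Fibcd1 with its near copy and the forebrain fit of Fibcd1 were chosen after seeing the data. The fits were tested on simulated data. No pair of libraries of a group was a duplicate, the 80 pairs having a chi-square of at least 6.30 per degree of freedom. Counting error limits Fibcd1 most, with 0 to 175 counts per library.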

Additional observations from a re-analysis of the deposited data

Results flagged for a closer look

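In 45 sets of 5 libraries, 4 had a library farther from the rest than a Dixon test at 95% allows, where chance gives about 1 in 20. In the hippocampus, Grik4 had 125 CPM in blast Hip_22, where the other blast libraries had 116.3 to 117.8 CPM. Grik4 also had 91.1 CPM in hippocampus sham Hip_14, the library with the downward length trend, where the other sham libraries had 112.3 to 119.1 CPM. Fibcd1 had 5.73 CPM in hippocampus blast Hip_22, where the other blast libraries had 0.474 to 1.64 CPM. In the anterior cortex, Prox1 had 31.3 CPM in blast AC_8, the library with the steepest upward length trend, where the other blast libraries had 12.2 to 13.5 CPM. Whether the length trend had a part in these values was not tested for single libraries.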

How the results depend on the processing

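Across the alternatives that left no single library out, 644 values kept their direction and their side of the threshold, 22 changed sign, 5 lost a call and 1 passed 0.05 (C1ql2 in the amygdala, by an exact permutation p for that gene alone, with no adjustment), and 10 counts moved by more than 1.5 times. In the hippocampus, Prox1 became 0.0789 with limma voom, 0.0673 without libraries Hip_8, Hip_666 and Hip_11 and 0.0670 as the difference of mean log2 CPM; Dsp became -0.14 with limma quality weights and -0.20 without those 3 libraries, and C1ql2 0.0957 with quality weights. In the amygdala, Wfs1 became 0.0280 with library totals, 0.00592 with limma voom, 0.0141 with quality weights, 0.0177 with the length trend removed and 0.00542 as the difference of mean log2 CPM. In the anterior cortex, Grik4 became 0.0231 with library totals, 0.00175 with quality weights and 0.0715 without libraries AC_8, AC_11, AC_13 and AC_15, which also turned Prox1 to 0.0585 and Wfs1 to 0.19; Wfs1 became 0.000527 with quality weights. In the cerebellum, Wfs1 became -0.00277 in 1 model of all 40 libraries. Dsp for the hippocampus effect minus that of the anterior cortex became -0.15 without 7 libraries, Grik4 minus that of the amygdala -0.0101 with the length trend removed, the relation of Grik4 and Wfs1 -0.15 with group means kept, and Fibcd1 over the amygdala -1.17 in blast libraries. The cause was not tested.

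Counts of genes called, 0 for each blast comparison by edgeR, became 1 in the hippocampus and 5 in the cerebellum with DESeq2. In the amygdala they became 20 with DESeq2, 2 with no filter and 1 with the length trend removed. In the anterior cortex they became 34 in 1 model of all 40 libraries and 2 without 4 libraries. They became 3 for the interaction with the DESeq2 likelihood ratio test and 15 for the hippocampus effect minus that of the anterior cortex with the DESeq2 Wald test. The count of genes called between sham hippocampus and anterior cortex was 4011 without 4 libraries, against 6846 with all. None of these settings called a member for blast.

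Leaving out 1 library at a time gave 0 to 1 genes called in the hippocampus, 0 to 2 in the amygdala, 0 to 1 in the cerebellum, 0 to 1 for the hippocampus minus the amygdala effect and 0 to 376 for the hippocampus minus the anterior cortex effect. Members called ran from 0 to 1 in the amygdala (Fibcd1 without Amy_88, the blast library low in it, a fit it entered only through the 4 high blast libraries) and from 4 to 5 for sham hippocampus over amygdala. Fold changes ran from -0.19 to 0.16 for Prox1, -0.15 to 0.19 for Dsp and -0.16 to 0.0692 for C1ql2 in the hippocampus, and from -0.0802 to 0.13 for Wfs1 in the amygdala. In the anterior cortex they ran from -0.24 to 0.35 for C1ql2, -0.0620 to 0.0104 for Grik4 and -0.14 to 0.0546 for Wfs1, and in the cerebellum from -0.0121 to 0.38 for C1ql2 and -0.0402 to 0.0520 for Wfs1. For the hippocampus effect they ran from -0.31 to 0.0443 (Prox1) and -0.0340 to 0.0760 (Grik4) minus the amygdala, -0.47 to 0.16 (C1ql2) minus the anterior cortex and -0.41 to 0.00848 (Dsp) minus the cerebellum. Wfs1 in sham hippocampus over amygdala ran from 0.39 to 0.58.

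Same-numbered libraries of different regions had correlations from -0.15 to 0.44 once group means were removed, and 19 of 57 pairs were over 0.1. Differently numbered libraries were not compared, so these values cannot show whether libraries of a number belong together. The numbers were not taken as pairs in the main fits. With the number as a replicate block, Wfs1 in sham hippocampus over amygdala was 0.39 (edgeR adjusted p = 0.152) and members called there were 4. Within a region blast and sham share no number. The depth left Fibcd1 with 0 to 175 counts, where counting error is large.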
